A study of Homo sapiens with 9 samples.

Results

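INPP4B and 6 other genes of phosphoinositide 3-kinase (PI3K) signalling were followed across SW480/EGFP, a human colorectal carcinoma line expressing the fluorescent protein EGFP, and 2 lines each grown from a single SW480/EGFP cell. SCP51 was the line classed as highly metastatic and SCP58 the line classed as poorly metastatic after orthotopic implantation in mice; the labels give the parent as SW480/EGFP, from which both lines derive, and each class is represented by 1 clone. Total RNA from cultured cells was measured with 3 Affymetrix arrays for each of SCP51, SCP58 and SW480/EGFP, labelled as biological replicates, and the labels do not say how far back the cultures were separate. The members were taken as all probe sets (groups of array probes that report 1 transcript) annotated to exactly 1 of 7 gene symbols. These were the phosphatases INPP4B, INPP4A and INPPL1, the catalytic subunits PIK3CA and PIK3CB, and the regulatory subunits PIK3R1 and PIK3R3. The rule found 18 of 54675 probe sets, for 6 of the 7 genes. No probe set in the annotation used here carried PIK3CA alone, and PIK3CA was not analysed here. The genes were chosen with their signals on these 9 arrays already known, so their differences are given as a description with a standard error and no test.

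PI3K enzymes add a phosphate to the inositol ring of membrane lipids, and the products bring kinases such as AKT to the membrane, where they are activated. A regulatory subunit stabilises the catalytic subunit and couples it to receptors and adaptors. Phosphatases such as SHIP2, the product of INPPL1, and the 4-phosphatases encoded by INPP4A and INPP4B remodel and remove these lipids. INPP4B is known as a tumour suppressor in breast and prostate epithelium, while in some other tumours, colorectal cancer among them, it has been linked to growth.

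Array median signals ranged from 41.2 to 44.3. SCP51 replicate 1 stood apart, with correlations of 0.891 to 0.911 with the other arrays across genes, against 0.945 to 0.979 among the other 8 (genes are not independent replicates). In the scaling as deposited, the median gene differed by -0.11 log2 units between SCP51 and SCP58, by -0.10 between SCP51 and the parent, and by 0.00 between SCP58 and the parent. Of 10 colorectal epithelial markers, 8 lay above the array median on all 9 arrays (EPCAM, KRT8, KRT18, KRT19, VIL1, CDX2, CDH1 and CLDN7). Summed, the epithelial markers gave signals of 19590 to 25364 in SCP51, 20676 to 22570 in SCP58 and 20996 to 21943 in the parent. The sums stayed between 280 and 345 for 6 fibroblast markers, between 202 and 243 for 5 leukocyte markers and between 181 and 233 for 5 endothelial markers. PTPRC, CD14, CD53, CDH5, COL1A2, COL3A1 and LUM were above the median on no array. COL1A1, CD3E, LAPTM5 and VWF were above it on all arrays, and no marker was at 0. Their part in the results was not tested.

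INPP4B is the gene the results turn on, so the reference sequence around its annotated start is shown first. RefSeq (GRCh38.p14) lists 6 start windows of 300 bases for INPP4B, on the minus strand of chromosome 4, each with 250 bases before the start and 50 after it. The window farthest 5′ lies at chr4:142846252-142846551 and is printed with the single TATAAA in capitals:
INPP4B start window 1: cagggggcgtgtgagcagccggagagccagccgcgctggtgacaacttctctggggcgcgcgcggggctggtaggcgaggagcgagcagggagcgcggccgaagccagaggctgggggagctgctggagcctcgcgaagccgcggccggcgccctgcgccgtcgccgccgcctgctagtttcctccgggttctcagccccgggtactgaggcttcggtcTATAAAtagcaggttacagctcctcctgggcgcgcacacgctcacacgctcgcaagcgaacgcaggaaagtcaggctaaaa
It holds 34 CG dinucleotides, a number reached by 15.6% of the 35116 windows in the table, whose median is 14. The other 5 windows hold 0 to 2. The next window downstream, at chr4:142405810-142406109, is shown for contrast and has 2 CG dinucleotides and no TATAAA:
INPP4B start window 2: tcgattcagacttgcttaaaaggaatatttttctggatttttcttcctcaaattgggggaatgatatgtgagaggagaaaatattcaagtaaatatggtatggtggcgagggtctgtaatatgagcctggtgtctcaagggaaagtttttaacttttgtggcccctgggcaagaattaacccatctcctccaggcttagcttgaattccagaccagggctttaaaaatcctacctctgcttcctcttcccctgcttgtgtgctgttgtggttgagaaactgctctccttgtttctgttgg
These 3 motifs were searched on both strands, in windows of the same length: the GC box letters GGGCGG, found in 45% of all windows, the TATA box letters TATAAA, found in 11.5%, and the FOXO-type letters GTAAACA, found in 3.42%. Neither GGGCGG nor GTAAACA was in any of the 6 INPP4B windows, and TATAAA was in 3 of them. In the first window the leftmost base of TATAAA lies at -31 from the annotated start. Windows 5 and 6, counted from the 5′ end, overlap and share a single match. It reads TTTATA, so TATAAA is on the opposite strand, and lies at -55 in window 5 and -167 in window 6. These matches are descriptions of letters, and the arrays do not tell from which start the measured transcripts came.

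INPP4B signal was highest in SCP51, intermediate in SCP58 and lowest in SW480/EGFP. Its brightest probe set, 205376_at, had signals of 288, 294 and 254 in SCP51, 161, 133 and 161 in SCP58, and 47.4, 58.9 and 65.05 in SW480/EGFP. No array of one group reached the range of another, and the parent arrays lay close above the array medians. On the log2 scale the means were 8.12 ± 0.11 in SCP51, 7.24 ± 0.16 in SCP58 and 5.82 ± 0.23 in the parent (SD, n = 3 each). The log2 difference was 2.29 ± 0.15 (SE) between SCP51 and the parent, which is 4.91-fold. It was 1.41 ± 0.15 between SCP58 and the parent, or 2.66-fold, and 0.88 ± 0.15 between SCP51 and SCP58, or 1.84-fold. SCP58 thus stood at 61.6% of the log2 distance from the parent to SCP51. Each step in the order exceeded the SDs of both its groups.

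The second INPP4B probe set to pass the filter on low values, 235046_at, kept the same order. Its signals were 177, 283 and 229 in SCP51, 102, 98.1 and 157 in SCP58, and 53.3, 44.6 and 51.8 in the parent. The groups again did not overlap, although the SCP58 array at 157 came near the SCP51 array at 177. The log2 differences were 2.18 ± 0.22 between SCP51 and the parent, 1.22 ± 0.22 between SCP58 and the parent, and 0.96 ± 0.22 between SCP51 and SCP58 (SE, n = 3 per group). SCP58 stood at 56.2% of the distance by this probe set.

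The other 2 INPP4B probe sets were dim. Probe set 223878_at had signals of 30.2, 45.3 and 38.4 in SCP51, 19.5, 21.7 and 21.3 in SCP58, and 14.9, 15.8 and 15.1 in the parent. It kept the order without overlap but lay above the array median on 1 array alone, in SCP51, so its differences of 1.29 ± 0.15, 0.44 ± 0.15 and 0.85 ± 0.15 log2 units (SCP51 and parent, SCP58 and parent, SCP51 and SCP58) are uncertain in size. Probe set 1563833_at was under the median on all 9 arrays, with signals of 12.4 to 19.6 in SCP51, 12.3 to 18.2 in SCP58 and 10.2 to 14.97 in the parent. Its groups overlapped in every comparison. SCP58 stood at 34.4% of the log2 distance by 223878_at and at 98.6% by 1563833_at, so the position of SCP58 differed between probe sets. Without SCP51 replicate 1, the array that stood apart, the 205376_at difference was 2.27 between SCP51 and the parent and 0.86 between SCP51 and SCP58. With 32 added to each signal before log2, which damps dim values, the differences from the parent were 1.80 for SCP51 and 1.04 for SCP58.

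**Figure D1:**
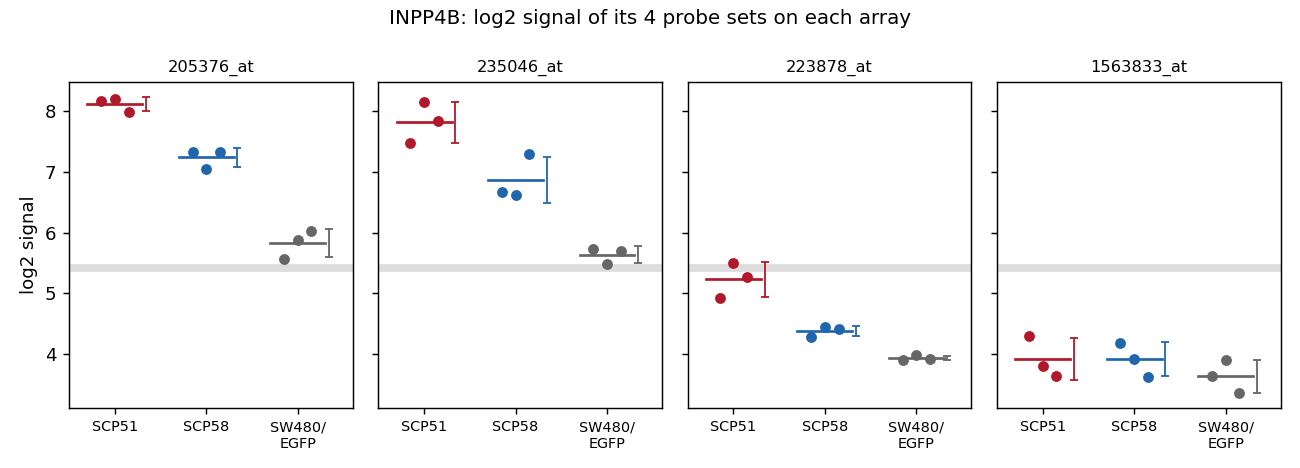
Log2 signal of the 4 INPP4B probe sets (panels) in SCP51, SCP58 and SW480/EGFP. Points are arrays, horizontal lines are means, vertical bars are 1 SD (n = 3), and the grey band spans the array medians; in 3 panels the groups descend from SCP51 to the parent without overlap, and 1563833_at lies under the band.

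INPP4A encodes the closest relative of INPP4B. Its brightest probe set, 227087_at, had signals of 184, 202 and 170 in SCP51, 158, 186 and 230 in SCP58, and 114, 152 and 148 in the parent. Both single-cell lines lay above the parent without overlap, and overlapped each other. The log2 differences were 0.43 ± 0.18 for SCP51 and 0.46 ± 0.18 for SCP58 relative to the parent, and -0.03 ± 0.18 between SCP51 and SCP58 (SE, n = 3 per group), the last turning to 0.04 after quantile normalization. Of the other 2 INPP4A probe sets that passed the filter, 204552_at pointed the same way relative to the parent, at 0.31 ± 0.18 for SCP51 and 0.36 ± 0.18 for SCP58. The third, 208364_at, lay at 0.08 ± 0.11 and -0.12 ± 0.11. The remaining 3 INPP4A probe sets were dim, with signals of 21.8 to 46.7 over all arrays, and their groups overlapped in every comparison.

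INPPL1, whose product SHIP2 removes a phosphate from the main PI3K product, was read by 1 probe set. Its signals were 391, 363 and 294 in SCP51, 219, 296 and 437 in SCP58, and 248, 373 and 309 in the parent. The SCP58 arrays alone spanned the range of all the others. The log2 differences were 0.19 ± 0.27 between SCP51 and SCP58, 0.18 ± 0.27 between SCP51 and the parent, and 0.00 ± 0.27 between SCP58 and the parent (SE, n = 3 per group). No difference exceeded its SE.

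PIK3CB, a catalytic subunit used downstream of G protein-coupled receptors as well as receptor kinases, had signals of 325, 335 and 294 in SCP51, 343, 345 and 473 in SCP58, and 321, 321 and 354 in the parent. The SCP51 arrays lay under the SCP58 arrays by a narrow gap, and SCP58 replicate 3 was the one high value. The log2 difference was -0.27 ± 0.16 between SCP51 and SCP58, or -0.19 after quantile normalization. It was -0.06 ± 0.16 between SCP51 and the parent, a sign that turned to 0.01 after quantile normalization, and 0.20 ± 0.16 between SCP58 and the parent. The other PIK3CB probe set lay under the median on all arrays.

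PIK3R1 encodes the most widely used regulatory subunit. Its brightest probe set, 212239_at, had signals of 67.4, 117 and 121 in SCP51, 144, 84.4 and 142 in SCP58, and 133, 143 and 152 in the parent. The 3 SCP51 arrays lay under the 3 parent arrays, and the SCP58 arrays were split. The log2 difference between SCP51 and the parent was -0.53 ± 0.27 (SE, n = 3 per group). It was -0.25 without SCP51 replicate 1, which is under its SE in the fit of all arrays. For SCP51 relative to SCP58 the difference was -0.28 ± 0.27, and -0.01 without that array. For SCP58 relative to the parent it was -0.25 ± 0.27, while the other 2 PIK3R1 probe sets that passed the filter pointed the other way, at 0.12 ± 0.16 (212240_s_at) and 0.58 ± 0.88 (212249_at). A second probe set, 212240_s_at, lay near the array median, at -0.25 ± 0.16 between SCP51 and SCP58 and -0.13 ± 0.16 between SCP51 and the parent. The third, 212249_at, jumped between arrays of one group, with signals of 11.8, 19.4 and 69.7 in SCP51, 13.8, 60.1 and 50.8 in SCP58, and 67.2, 12.3 and 15.2 in the parent. Its high and low values were found in all groups, and its difference between SCP51 and SCP58 was -0.47 ± 0.88. Between SCP51 and the parent the 212249_at difference was 0.11 ± 0.88, opposite in sign to that of 212239_at.

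PIK3R3, another regulatory subunit, had no probe set that passed the filter. The brighter of the pair, 211580_s_at, gave signals of 35.1, 29.9 and 33.1 in SCP51, 37.9, 40.7 and 36.0 in SCP58, and 28.6, 34.1 and 38.7 in the parent, all under the array medians. SCP51 lay under SCP58 without overlap, by a margin of under 1 signal unit. The other, 202743_at, read 55.6 on 1 SCP51 array and 73.1 on 1 parent array, and 13.5 to 18.4 on the remaining arrays.

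**Figure D2:**
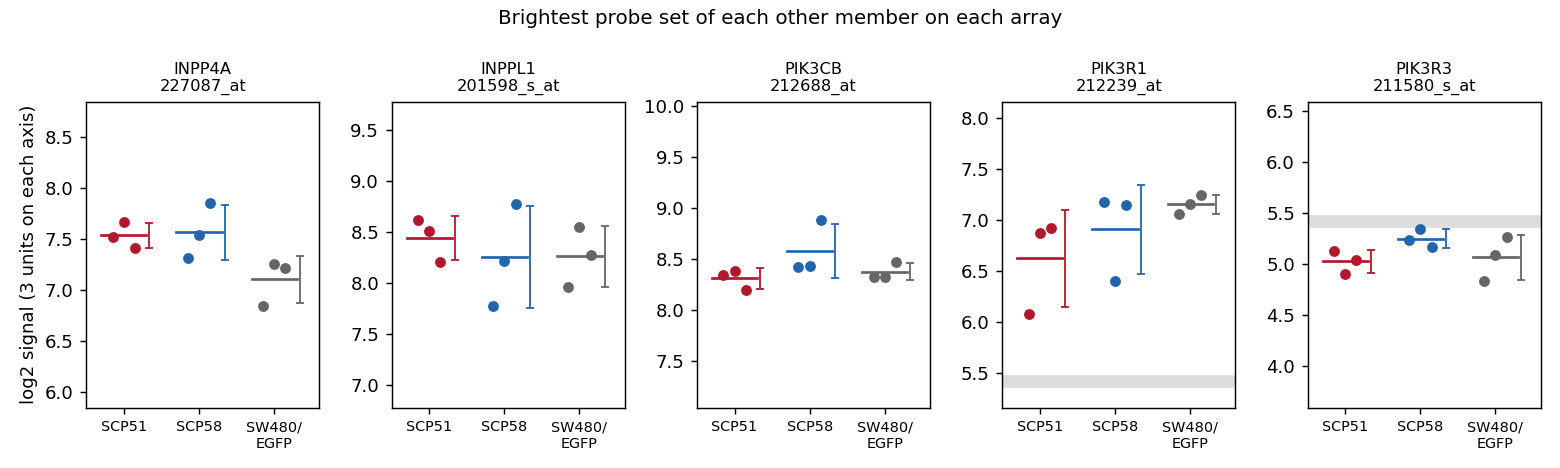
Log2 signal of the brightest probe set of INPP4A, INPPL1, PIK3CB, PIK3R1 and PIK3R3 in SCP51, SCP58 and SW480/EGFP. Points are arrays, lines are means and bars 1 SD (n = 3); each axis spans 3 log2 units and the grey band marks the array medians, under which PIK3R3 lies in all groups.

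Of the 18 probe sets, 10 passed the filter, and through it 5 member genes were in the gene-level fit. Between SCP51 and SCP58 the groups of 3 arrays did not overlap for 3 of these 10, beside 23.2% of all probe sets tested. Between SCP51 and the parent this held for 4 of the 10 (26.1% of all), and between SCP58 and the parent for 4 of the 10 (16.3% of all). In the gene-level limma fit, INPP4B was the 1 member called in each comparison. Its call against the parent was kept for SCP51 in all 20 alternatives. Between SCP51 and SCP58 it was lost when replicate 2 of SCP51, or replicate 2 or 3 of SCP58, was left out, and with only those 6 arrays fitted. Between SCP58 and the parent it was lost without SW480/EGFP replicate 1, SW480/EGFP replicate 2 or SCP58 replicate 3, and without SW480/EGFP replicate 1 no gene at all was called. In the probe set fit, 235046_at was called between SCP51 and the parent and in neither of the other comparisons. Over all genes tested, 4.08% were called between SCP51 and SCP58, 2.96% between SCP51 and the parent and 0.140% between SCP58 and the parent. Since the members were picked from these signals, their calls are given as description and are no support for a difference. Nothing is read from the counts, the calls or how often a call was kept.

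The genes next to INPP4B on chromosome 4 were looked at after the INPP4B values were seen. Among the 5 measured genes on either side, from ELMOD2 to IL15 and from USP38 to ANAPC10, none of the 10 was called in any comparison by limma over all genes. At an unadjusted p under 0.05, 1 of the 10 passed between SCP51 and SCP58, beside 21.3% of all genes, 0 between SCP51 and the parent, beside 19.6%, and 0 between SCP58 and the parent, beside 8.6%. Their log2 differences ran from -0.53 to 0.18 between SCP51 and the parent, with a median of -0.11, and INPP4B stood at 2.29. Between SCP58 and the parent they ran from -0.09 to 0.54, with a median of 0.03, and between SCP51 and SCP58 from -0.67 to 0.15, with a median of -0.13. USP38, the nearest measured gene on one side, stood at 0.11 ± 0.42 between SCP51 and the parent, and IL15, the nearest on the other, at -0.28 ± 0.27. GAB1, an adaptor that binds PI3K, is one of these neighbours and stood at -0.08 ± 0.18.

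**Figure D3:**
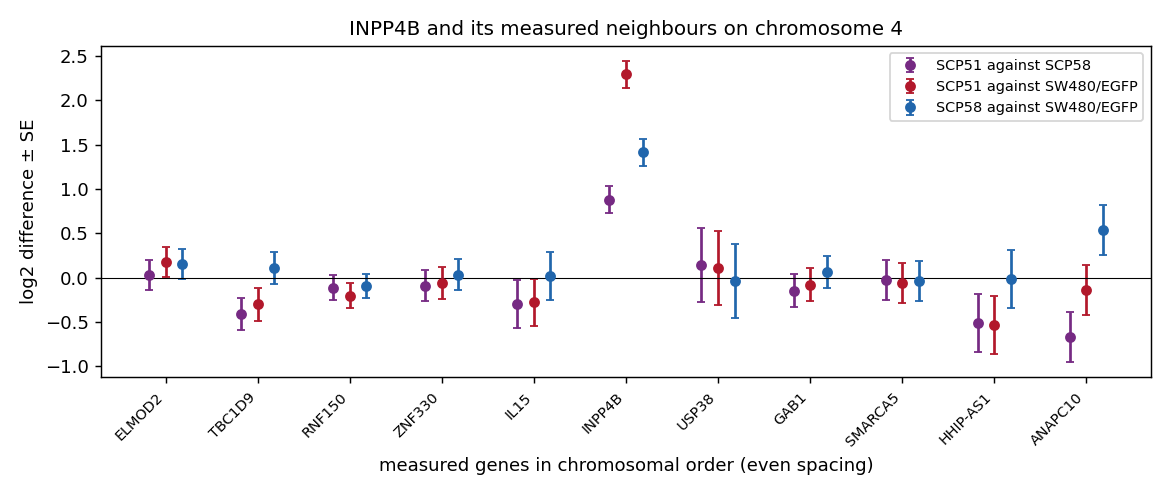
Log2 difference with its SE for INPP4B and the 5 measured genes on either side of it, in chromosomal order and evenly spaced, in the 3 comparisons. INPP4B stands at 0.88, 2.29 and 1.41, while the neighbours lie between -0.67 and 0.54.

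The pattern most like that of INPP4B over the 9 arrays was found in CPNE1, which encodes the calcium-dependent membrane-binding protein copine 1, with a Pearson correlation of 0.992 with 205376_at. Next came EFNA5, an ephrin ligand, at 0.987, the homeobox genes HOXB3 at 0.984 and HOXB8 at 0.981, and SERPINI1, a secreted protease inhibitor, at 0.979. These are the 5 highest of all genes tested, 86 of which exceeded 0.9. The 9 points form 3 groups, so these correlations mostly restate that the groups have the same order. CPNE1 had signals of 693, 767 and 669 in SCP51, 494, 470 and 583 in SCP58, and 283, 313 and 325 in the parent. EFNA5, under the array median in the parent, had signals of 124, 164 and 155 in SCP51, 61.7, 49.1 and 65.6 in SCP58, and 16.2, 24.0 and 21.1 in the parent. Neither gene's groups overlapped, which says little beyond the choice of both genes by likeness to INPP4B. For HOXB3 the log2 means were 8.68 in SCP51, 8.19 in SCP58 and 6.68 in the parent, and for HOXB8 they were 9.29, 7.53 and 4.80 in that order of groups. HOXB8 was also under the array median in the parent, with signals of 22.7, 33.0 and 29.1. Its SCP58 arrays were spread, at 316, 146 and 138.

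**Figure D4:**
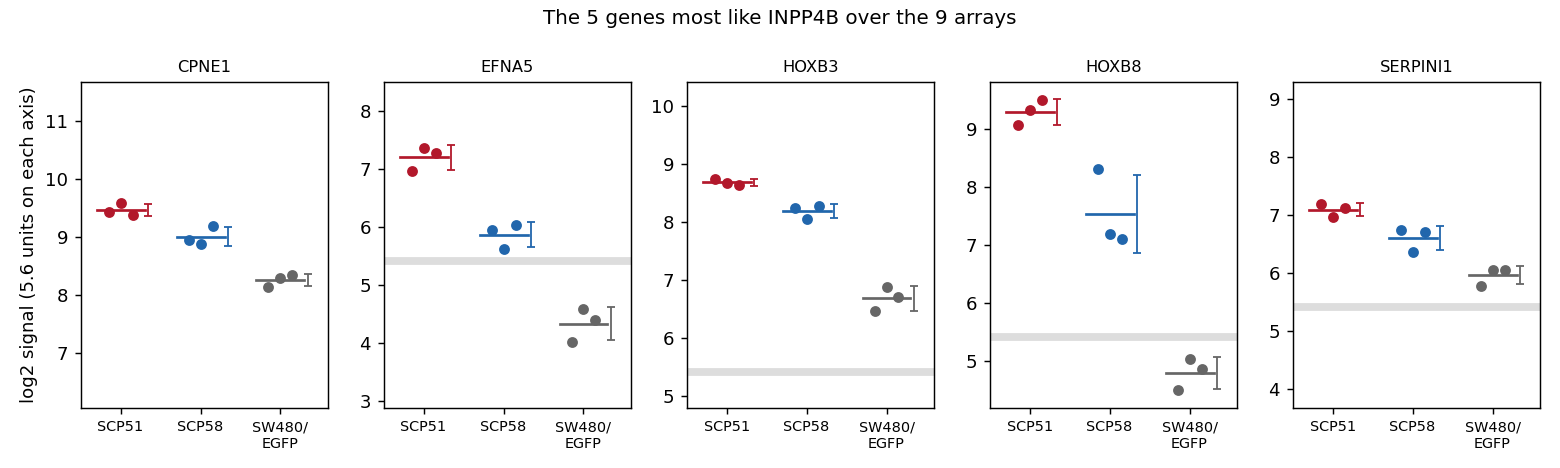
Log2 signal of the 5 genes whose pattern over the 9 arrays was closest to INPP4B by Pearson correlation (0.979 to 0.992). Points are arrays, lines are means and bars 1 SD (n = 3); each axis spans 5.6 log2 units, and in every panel the order is SCP51, SCP58, SW480/EGFP from high to low.

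The rest of the pathway was read through 6 lists of 117 genes that are not members, of which 100 were tested. They hold other PI3K subunits, other phosphoinositide phosphatases, phosphoinositide kinases, receptors and adaptors, downstream kinases, and transcripts known as targets of the FOXO factors that AKT restrains. Between SCP51 and SCP58, 1 gene was called higher and 4 lower in SCP51 (5%, beside 4.08% of all genes), and the median was -0.18, beside -0.11 over all genes. Between SCP51 and the parent, 3 were called higher and 1 lower (4%, beside 2.96%), with a median of -0.10, beside -0.10. Between SCP58 and the parent none of the 100 was called by limma, beside 0.140% of all genes, and the median was 0.09, beside 0.00 over all genes. At an unadjusted p under 0.05, 25 of the 100 passed between SCP51 and SCP58 (21.3% of all genes), 28 between SCP51 and the parent (19.6%) and 13 between SCP58 and the parent (8.6%). By adjusted p, the shares called in the SCP51 comparisons lie near those of all genes. By unadjusted p, the pathway shares were higher than those of all genes in each comparison, and this excess was not tested. By list, none of the 8 other PI3K subunits and regulators was called in any comparison, with medians of -0.18 between SCP51 and SCP58, -0.07 between SCP51 and the parent and 0.09 between SCP58 and the parent. Of 25 other phosphatases, 1 rose between SCP51 and the parent, namely INPP1, whose product degrades soluble inositol phosphates. Of 10 phosphoinositide kinases, 1 rose and 1 fell between SCP51 and SCP58, where the list's median was -0.42, and 1 rose between SCP51 and the parent. Of 13 receptors and adaptors, 1 fell between SCP51 and SCP58, and 1 rose and 1 fell between SCP51 and the parent. Of 28 downstream kinases and regulators and of 16 FOXO target transcripts, 1 each fell between SCP51 and SCP58, and none was called between SCP51 and the parent. The kinase genes AKT1, AKT2 and PDPK1, which act at the centre of the pathway, were not called in any comparison, and their log2 differences lay between -0.15 ± 0.19 (AKT1, SCP51 and parent) and 0.24 ± 0.11 (PDPK1, SCP51 and parent). PIK3R2 and SGK3 were not analysed here.

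Between SCP51 and SCP58 the pathway gene with the smallest p was RICTOR, the subunit that defines the complex mTORC2, an activator of AKT. Its signals were 148, 195 and 180 in SCP51 and 268, 353 and 346 in SCP58, with no overlap, and 223, 249 and 231 in the parent. Neither SCP51 nor SCP58 was called against the parent for RICTOR. It was 0.89 log2 units lower in SCP51 than in SCP58 (SE 0.15, limma adjusted p = 0.0207). The call was lost without SCP58 replicate 2 (adjusted p = 0.0955) or SCP58 replicate 3 (0.0757), with its probe sets averaged (-0.61, adjusted p = 0.148) and with only the arrays of SCP51 and SCP58 fitted (0.0858). SESN1, a stress-induced FOXO target that restrains mTORC1, had signals of 89.5, 103 and 135 in SCP51, and 208, 181 and 189 in SCP58. The parent had 127, 144 and 164. Relative to the parent, SCP51 stood at -0.42 ± 0.17 and SCP58 at 0.41 ± 0.17, and neither was called. SESN1 was 0.83 log2 units lower in SCP51 than in SCP58 (SE 0.17, limma adjusted p = 0.035). That call was lost without SCP51 replicate 2, any parent replicate or any SCP58 replicate (adjusted p from 0.0531 to 0.113). It was also lost with no filter (0.0517) and with only the arrays of SCP51 and SCP58 (0.0982).

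ERBB3, a receptor whose tail binds PI3K regulatory subunits, had signals of 133, 58.6 and 72.4 in SCP51 and 231, 188 and 213 in SCP58, with 165, 240 and 197 in the parent. It fell by 1.35 log2 units in SCP51 relative to SCP58 (SE 0.28; limma adjusted p = 0.0399). That call was kept only without SCP51 replicate 1 among the 9 arrays left out in turn (0.0539 to 0.118 in the other 8), and relative to the parent the difference was -1.26 ± 0.28 (adjusted p = 0.0572). The ERBB3 call was also lost after quantile normalization (0.059), after centring (0.0536), with no filter (0.0542) and with only the arrays of SCP51 and SCP58 (0.11). With its probe sets averaged the call was kept, but the difference was smaller, at -0.77 (limma adjusted p = 0.0405). The inositol kinase gene IPMK, dim in SCP51, had signals of 22.6, 26.7 and 58.2 in SCP51 and 76.1, 85.1 and 109 in SCP58. The parent had 81.3, 69.6 and 76.7. Relative to the parent, SCP51 stood at -1.21 ± 0.32 for IPMK and was not called (limma adjusted p = 0.0941). IPMK fell by 1.44 log2 units in SCP51 relative to SCP58 (SE 0.32, limma adjusted p = 0.0459), or by 0.88 with 32 added before log2. Its call was lost without any 1 of 7 arrays: SCP51 replicate 2, each parent replicate and each SCP58 replicate (0.0712 to 0.144). It was also lost with no filter (0.0609), with all probe sets tested (0.0504) and with only the arrays of SCP51 and SCP58 (0.142).

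PIP4K2A, which makes a bisphosphorylated phosphoinositide from a minor precursor, was called higher in SCP51 in both of its comparisons. Its signals were 531, 793 and 737 in SCP51, 403, 427 and 416 in SCP58, and 402, 405 and 408 in the parent, so that every SCP51 array lay above all 6 others. The log2 difference was 0.71 ± 0.16 between SCP51 and SCP58 (limma adjusted p = 0.0449) and 0.74 ± 0.16 between SCP51 and the parent (0.0458). Both comparisons share the SCP51 arrays, and SCP51 replicate 1, the array that stood apart, had the lowest of the 3 SCP51 signals. Each call was kept without SCP51 replicate 1 and lost without any 1 of the other 8 arrays (0.0688 to 0.143 and 0.0656 to 0.159). Both were also lost with no filter, with probe sets averaged, with all probe sets tested and with only the 6 arrays compared (0.0522 to 0.146 over both).

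Between SCP51 and the parent, MET, the receptor for hepatocyte growth factor, had signals of 1061, 1252 and 1072 in SCP51 and 698, 663 and 681 in the parent, with 927, 712 and 967 in SCP58. MET rose by 0.73 ± 0.14 log2 units in SCP51 (SE; limma adjusted p = 0.0336), a call lost without SCP51 replicate 2, SCP51 replicate 3 or any parent replicate (0.0507 to 0.124), with its probe sets averaged (0.111) and with only the 6 arrays compared (0.052). GRB10, an adaptor that inhibits insulin receptor signalling, had signals of 258, 253 and 199 in SCP51, and 379, 475 and 398 in the parent. It fell by 0.82 log2 units (SE 0.17; limma adjusted p = 0.0427), and was kept only without SCP51 replicate 1 or SCP58 replicate 2 among the arrays left out in turn (0.0578 to 0.139 in the other 7). The GRB10 call was also lost after quantile normalization (0.0925), after centring (0.0651), with no filter (0.0587), with all probe sets tested (0.0557) and with only the 6 arrays compared (0.0851). In SCP58, GRB10 signals of 227, 174 and 229 gave a difference of -0.99 ± 0.17 from the parent, which missed the threshold (adjusted p = 0.0815). INPP1 degrades soluble inositol phosphates. Its signals were 657, 563 and 618 in SCP51, 500, 458 and 479 in SCP58, and 391, 411 and 459 in the parent. INPP1 rose by 0.54 ± 0.12 log2 units in SCP51 relative to the parent (limma adjusted p = 0.0496). That call was lost when any 1 of the 9 arrays was left out (0.0569 to 0.17). It was also lost under each of the other settings given for GRB10 and with probe sets averaged (0.0517 to 0.124 over these).

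**Figure D5:**
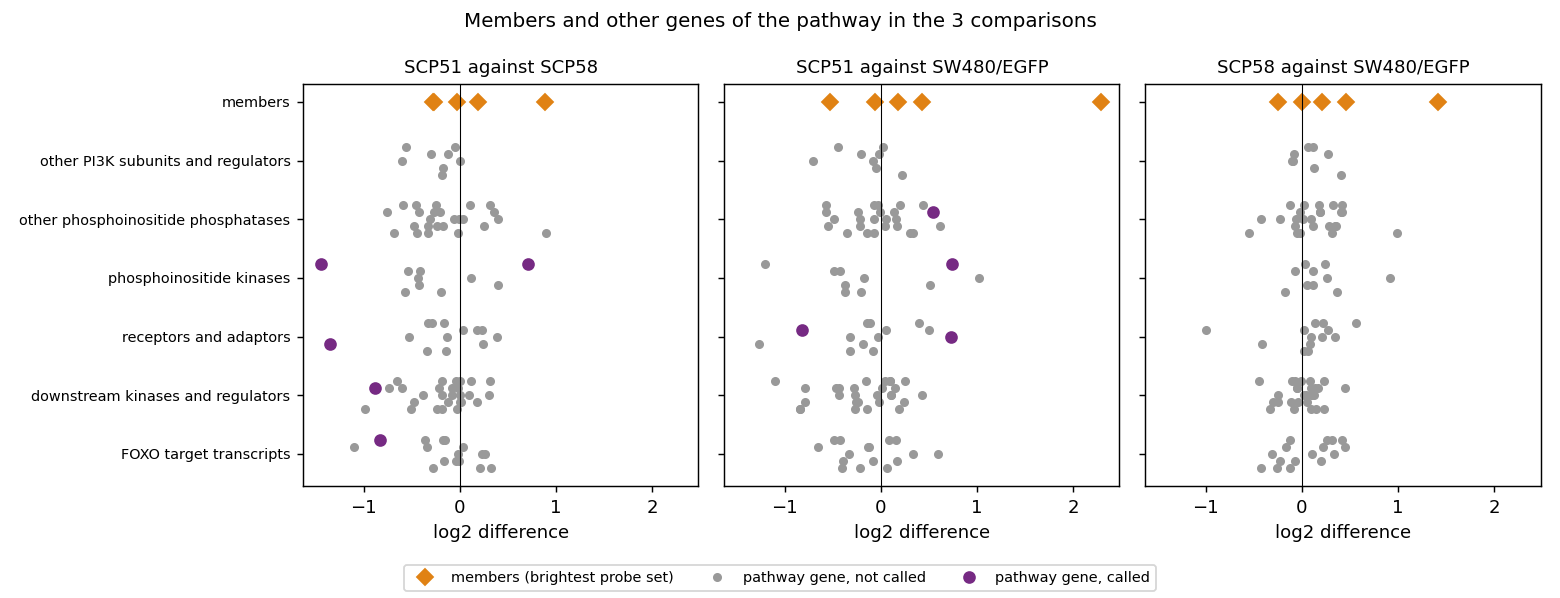
Log2 difference of the brightest probe set of each member gene in the fit (diamonds) and of 100 other pathway genes by list (points) in the 3 comparisons; purple points passed an adjusted p of 0.05. INPP4B is the rightmost diamond in each panel, at 0.88, 2.29 and 1.41, and no pathway gene passed between SCP58 and SW480/EGFP.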

How the data were processed

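The deposited probe set values are linear intensity signals; GCOS 1.4 is named in the submitters' processing notes, and no source used here gives its background method, summarisation or scaling target. Values under 1 (514, of which 3 were 0) were set to 1, log2 was taken and nothing was rescaled. The 62 control probe sets were left out. Probe sets above their array's median on at least 3 of the 9 arrays were kept, 29166 in all. Symbols came from the platform annotation, updated through Entrez identifiers in RefSeq. For each gene the brightest probe set with 1 symbol was taken, which gave 13598 genes.

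A limma 3.58.1 model (R 4.3.3) with 1 mean per group and an intensity trend was fitted to all 9 arrays, for genes and again for probe sets. A gene was called at a two-sided Benjamini-Hochberg adjusted p under 0.05 over all genes tested. Member differences come from the probe set fit (without the filter for probe sets that failed it). The script was tested on simulated data. The array number limits the precision. The p-values set a group difference against the spread between arrays within groups. With 1 clone per class, they do not cover variation between clones of a class.

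The members and lists were chosen with earlier results of these data known. Named were all member probe sets, up to 6 called pathway genes with the smallest p in each comparison, PIK3R2, PDPK1, AKT1, AKT2 and SGK3 where tested (other genes of that rule are not reported here), and the 5 genes most like INPP4B. Alternatives changed the filter, scaling, offset, variance model, probe set rule, arrays fitted, replicate block and each array in turn. Figures were drawn with matplotlib 3.10.9.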

Additional observations from a re-analysis of the deposited data

How the results depend on the processing

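The INPP4B log2 difference kept its direction in all 20 alternatives of each comparison, from 1.80 to 2.39 between SCP51 and the parent, 1.04 to 1.51 between SCP58 and the parent and 0.76 to 0.96 between SCP51 and SCP58. The difference stayed at its main value with changed filters, without the intensity trend, with each probe set by itself and with the replicate block. The same held with only the 6 arrays compared and without an array of the group not compared. Such settings leave a difference of group means unchanged, so they add nothing to the kept direction. The INPP4B difference moved by more than the replicate SD with 32 added before log2 (1.80 for SCP51 and 1.04 for SCP58, each against the parent). For SCP58 against the parent it also did so with array weights (1.22). Leaving out each array in turn gave 2.17 to 2.39, 1.29 to 1.51 and 0.79 to 0.95 in the same order of comparisons.

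Counts of calls depended far more on the model. For SCP51 against SCP58, 555 genes became 1527 with array weights, 134 when the fit held the 6 arrays of both groups alone, 210 with the replicate block and 137 to 1189 with an array left out; 976 probe sets were called when each was tested by itself. For SCP51 against the parent, 402 became 1356, 151, 167 and 122 to 724 in the same order of settings. For SCP58 against the parent, 19 became 1351, 31, 6 and 0 to 75, with 39 probe sets. The split of 201 higher and 354 lower between SCP51 and SCP58 was 319 and 302 after quantile normalization and 312 and 298 after centring on the 75th percentile. Between SCP51 and the parent, 187 higher and 215 lower became 246 and 169, and 247 and 183.

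Of the pathway genes, the 5 called between SCP51 and SCP58 became 14 with array weights, 1 with no filter, 1 with only the 6 arrays, 1 with the replicate block and 0 to 9 with an array left out (9 without SCP51 replicate 1, and 0 without SCP58 replicate 2 or 3). The 4 called between SCP51 and the parent became 18 with array weights, 1 with no filter, 2 with the mean of the probe sets, 0 with only the 6 arrays, 0 with the replicate block and 0 to 7 with an array left out (7 without SCP51 replicate 1, and 0 without SCP51 replicate 2 or any parent replicate). Between SCP58 and the parent, 0 became 12 with array weights and 0 to 1 with an array left out. After quantile normalization or centring the pathway split was 1 higher and 3 lower between SCP51 and SCP58, and 3 and 0 between SCP51 and the parent. The cause of these shifts was not tested. The replicate block also ended the INPP4B calls between SCP51 and SCP58 and between SCP58 and the parent, and those of all named pathway genes but RICTOR (adjusted p = 0.0322). Deviations from the group means correlated at -0.22 to 0.13 between same-numbered arrays, over 0.1 in 1 of 9 pairs. Between different-numbered arrays they correlated at -0.12 to 0.12. Deviations within a group cancel out by construction, so the same-numbered and different-numbered values are not independent of each other. Whether same-numbered arrays belong together was not tested. The main fit treated the arrays as unpaired. With no detection calls used here, differences from signals near or under the array median are uncertain in size.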
